A study of Rattus norvegicus with 10 samples.

Results

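The hypoxia and glycolysis genes described here are 36 genes of glucose uptake, glycolysis, lactate handling and the response to low oxygen, taken from the rat arrays of a FoxE1 silencing experiment. Members were every probe that is not a control and whose transcript accession belongs to one of the 36 genes, out of 15154 genes that could be named on the array. In all, 46 probes matched 35 of the 36 genes. Egln1, an oxygen-sensing prolyl hydroxylase, had no probe, and Slc2a3, a glucose transporter, was not well above background on enough arrays to be tested. The other 34 genes were tested in both comparisons, beside 9713 genes in all against siScramble and 9879 against wt.

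PCCl3 cells, a rat thyroid follicular line that keeps its differentiated functions in culture, were left untransfected (wt) or transfected with 25 nM of a pool of siRNAs against FoxE1 (siFoxE1) or of a non-targeting pool (siScramble). All cells grew in a medium with serum and hormones that included TSH and insulin, and RNA was taken 48 h after transfection. siFoxE1 cells were compared with siScramble and, separately, with wt cells, and each of these 2 comparisons had 4 arrays with numbered biological replicates, siFoxE1 in Cy5 and the reference in Cy3, and 1 array of pooled RNA with the dyes swapped. The study's design scheme draws the same siFoxE1 extracts in both comparisons, so the comparisons share those cells and n is 4 throughout. Culture oxygen, glucose and cell density are not stated in the labels.

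Cells sense oxygen through prolyl hydroxylases that mark the HIF alpha subunits for degradation. When oxygen is low, HIF accumulates and binds short hypoxia response elements, turning on glucose transporters, glycolytic enzymes, Pdk1, which keeps pyruvate out of mitochondria, and genes such as Vegfa, Bnip3 and Ankrd37. Glycolytic genes also respond to insulin, growth and nutrient supply, and thyroid follicular cells take up more glucose under TSH and insulin.

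All 7 thyroid follicular markers measured, among them Tg, Nkx2-1 and Pax8, were well above background on all 10 arrays in both channels. Leukocyte, fibroblast, endothelial and C cell markers had mean log2 intensities in wt cells of 5.93 to 7.70, and Ptprc, Dcn and Pecam1 were above background on no array. Lyz2 of the leukocyte list, Cdh5 of the endothelial list and Col1a1 and Pdgfra of the fibroblast list were well above background on all 10 arrays in both channels, and Calcb of the C cell list in all 10 reference and 9 siFoxE1 channels. Their part in the results was not tested. Foxe1, the silenced gene, was lower on all 10 arrays, with a fitted log2 ratio of -0.79 against siScramble (standard error 0.0856, limma adjusted p = 0.0226) and -0.86 against wt (standard error 0.0773, adjusted p = 0.0325). The 4 individual arrays averaged -0.56 against siScramble and -0.51 against wt, and the pooled arrays gave -1.03 and -1.21. Between 56.8 and 68.2% of spots were well above background in a channel and no spot was saturated. The 5 wt arrays and replicates 1, 2 and 4 of the siScramble comparison lay on one slide, with siScramble replicate 3 and its pooled array on the other.

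Promoters of 4 members are shown first, because HIF acts through the short core letters ACGTG or GCGTG. They are those of Ankrd37 and Hk2, singled out when the genes were chosen, and of Bnip3 and P4ha1, which after Ankrd37 differed most between replicates of control cells. Each run holds the 250 bases before the annotated start on the coding strand (RefSeq, GRCr8), 5′ to 3′, with the HRE core letters on either strand in capitals. The positions are Ankrd37 (chr16:53001257-53001506, plus strand), Bnip3 (chr1:203154963-203155212, minus strand), P4ha1 (chr20:27844796-27845045, plus strand) and Hk2 (chr4:116841276-116841525, minus strand).
Ankrd37: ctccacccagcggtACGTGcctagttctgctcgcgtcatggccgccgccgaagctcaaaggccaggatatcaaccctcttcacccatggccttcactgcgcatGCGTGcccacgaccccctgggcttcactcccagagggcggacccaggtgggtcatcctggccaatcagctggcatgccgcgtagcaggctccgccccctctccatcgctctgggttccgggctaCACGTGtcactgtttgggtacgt
Bnip3: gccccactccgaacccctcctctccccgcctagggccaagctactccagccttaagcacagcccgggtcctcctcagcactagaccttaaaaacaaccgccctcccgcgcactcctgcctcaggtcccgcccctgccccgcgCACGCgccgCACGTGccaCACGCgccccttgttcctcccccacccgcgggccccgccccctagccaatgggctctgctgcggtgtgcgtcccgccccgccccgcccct
P4ha1: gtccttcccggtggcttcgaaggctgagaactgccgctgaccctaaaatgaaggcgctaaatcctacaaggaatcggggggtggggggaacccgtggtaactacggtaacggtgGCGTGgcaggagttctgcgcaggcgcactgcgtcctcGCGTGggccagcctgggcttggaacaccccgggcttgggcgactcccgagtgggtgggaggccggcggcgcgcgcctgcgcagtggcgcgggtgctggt
Hk2: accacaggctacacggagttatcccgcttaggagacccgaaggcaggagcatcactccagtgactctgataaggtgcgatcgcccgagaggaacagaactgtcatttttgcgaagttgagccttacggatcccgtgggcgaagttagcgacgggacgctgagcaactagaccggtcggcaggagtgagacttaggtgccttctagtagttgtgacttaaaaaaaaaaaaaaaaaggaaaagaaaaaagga

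Ankrd37 and Bnip3 each held 4 positions with an HRE core, counting both strands, P4ha1 held 2 and Hk2 held none in this window. In Ankrd37 and Bnip3, 2 of the positions are the overlapping strands of a CACGTG, at -23 and -22 and at -99 and -98. Slc16a3, the next member by the difference between control replicates, held none either. Of 32 members with a promoter sequence, 23 held a core at 1 or more of their annotated starts, and 24 of their 38 promoters did (63.2%), beside 36.7% of all 33469 rat promoters of the same length. The forkhead core AAACA, on either strand, was found in 9 of the 38 (23.7%) and in 47.0% of all promoters. Base composition was not matched in these shares, and the HRE core holds a CG while the forkhead core is mostly A. Members were also picked as hypoxia and glycolysis genes, many known as HIF targets, so a high HRE share comes with the choice. Egln3, a prolyl hydroxylase that is itself a HIF target, held 3 forkhead cores, Pfkm 2, and Ankrd37, Bnip3, Aldoc, Tpi1, Pgam1, Kdm3a and Mxi1 1 each. Letters alone do not show binding, and a window without them says nothing about elements elsewhere.

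**Figure D1:**
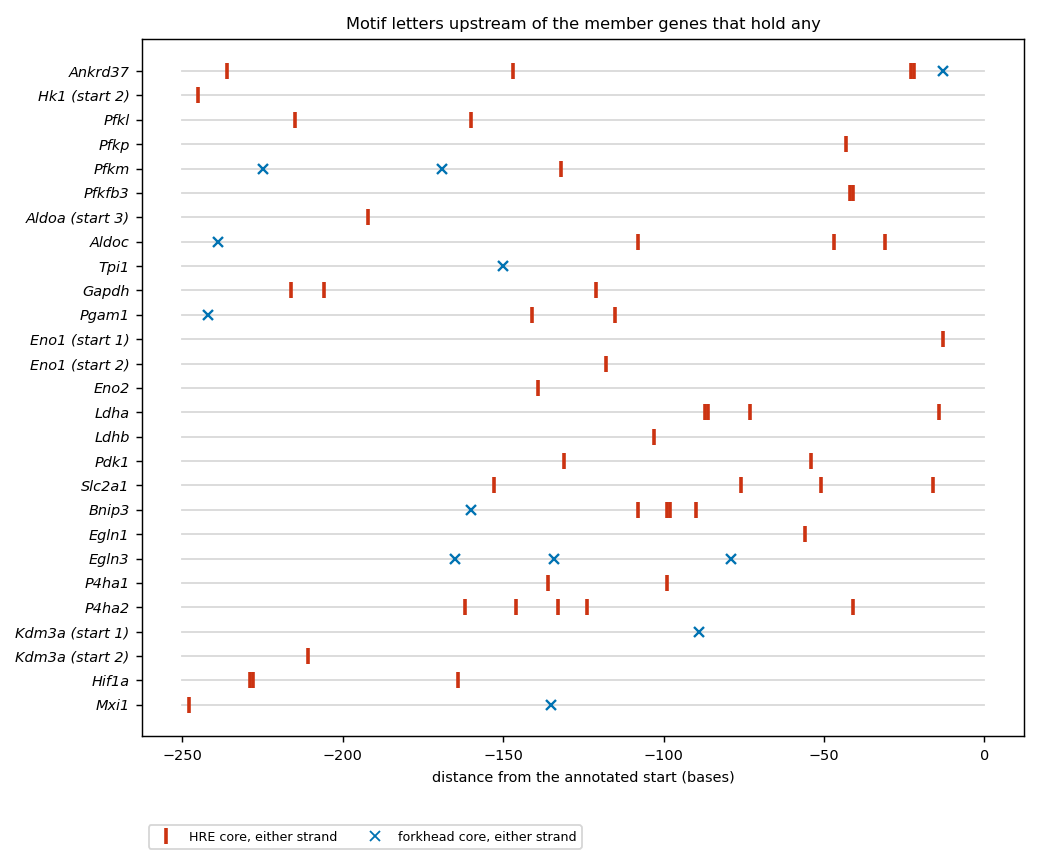
Positions of HRE cores (red bars) and forkhead cores (blue crosses) in the 250 bases before each annotated start, for the member promoters with either motif; the x axis is the distance from the start in bases. Ankrd37, Bnip3, Slc2a1 and Ldha each carry 4 HRE positions, P4ha2 5, and Egln3 has 3 forkhead cores and no HRE core. In Ankrd37, Bnip3 and Ldha a CACGTG counts on each strand and gives neighbouring positions.

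No member passed the test for silencing when each comparison was fitted on its own. With the replicate numbers as a block in one fit of all arrays, Hk2, Aldoc and Pgam1 passed against wt, beside 4.52% of all genes. In that fit none passed against siScramble, beside 0.272% of all genes. Aldoc rests on a single spot and Pgam1 on the pooled arrays, as given below. In the separate fits, 0 of 34 members had a limma adjusted p under 0.05 against siScramble, beside 14 of 9713 genes (0.144%). Against wt it was 0 of 34, beside 3 of 9879 genes (0.0304%). At an unadjusted p under 0.05, 5 members were higher and 5 lower against siScramble, where 8.65 and 7.47% of all genes were. Against wt 12 were higher and 2 lower, where 10.6 and 10.2% of all genes were. On whole cultures, fewer cells expressing a gene and less RNA per cell cannot be told apart. The fitted log2 ratio had a median of 0.06 over the members against siScramble and of 0.15 against wt, where all genes tested in both had 0.000201 and -0.0011. With the dye term each fitted value is the midpoint between the mean of the 4 individual arrays and the pooled array, which therefore weighs as much as those 4 together. The pooled array leaves no residual in such a fit. Standard errors and p-values therefore hold nothing of its distance from the individual arrays, and treat it as independent of them. The individual arrays had a median member ratio of 0.03 against siScramble and 0.01 against wt, and the pooled arrays 0.03 and 0.13 respectively. Pooling and dye orientation changed together on that array and cannot be told apart.

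**Figure D2:**
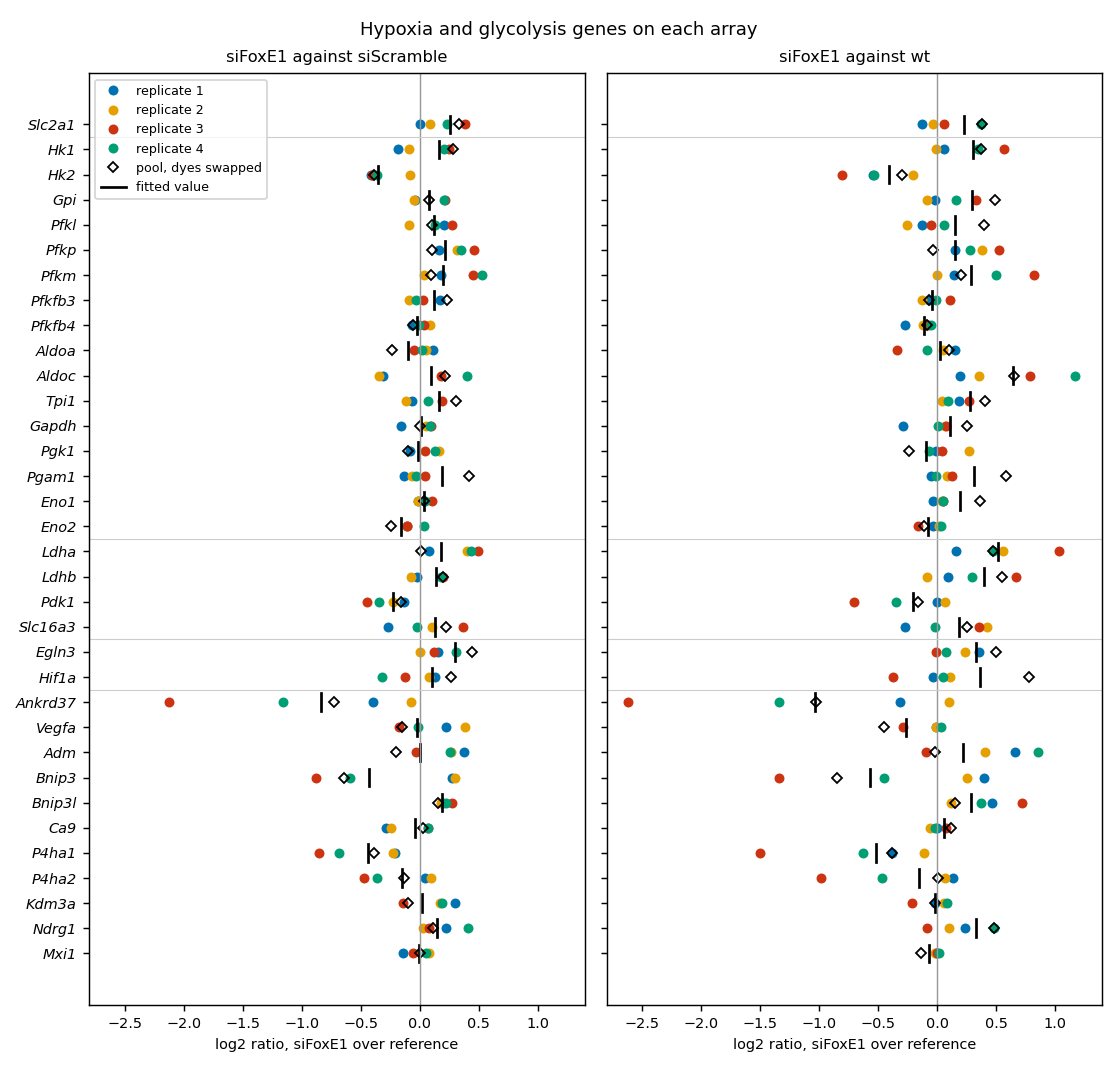
Log2 ratio of siFoxE1 over reference on each array for the 34 tested genes, grouped as glucose transporter, glycolytic enzymes, pyruvate and lactate genes, oxygen sensing and other HIF targets. Coloured points are replicates 1 to 4, open diamonds the pooled arrays with swapped dyes and black bars the fitted values; Ankrd37 and Bnip3 spread widest, and with P4ha1 had replicate 3 lowest in both comparisons.

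Slc2a1, the basal glucose transporter GLUT1, had log2 ratios against siScramble of 0.00, 0.09, 0.38 and 0.24 for replicates 1 to 4 and 0.33 for the pool. Its fitted ratio was 0.26 (standard error 0.0849, limma adjusted p = 0.287). Against wt the ratios were -0.13, -0.03, 0.06 and 0.38, with 0.38 for the pool, and the fitted value was 0.22 (standard error 0.104, adjusted p = 0.317). Replicates 1 and 2 lay close to 0 in both comparisons and replicate 4 was high in both. Slc2a3, its neuronal relative, was near the array floor, with log2 intensities of 5.93 to 6.10 in wt cells.

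Among 16 tested glycolytic enzymes, 11 had fitted ratios above 0 and 5 below 0 in each comparison, and none passed the test. Their median was 0.09 against siScramble and 0.15 against wt. Hk2, the inducible hexokinase that phosphorylates glucose at the mitochondrial surface, lay below 0 on all 10 arrays. Replicates 1 to 4 gave log2 ratios of -0.42, -0.08, -0.41 and -0.36 against siScramble, and the pool gave -0.39 (fitted -0.35, standard error 0.0834, limma adjusted p = 0.213). Against wt they were -0.55, -0.21, -0.81 and -0.54, with -0.29 for the pool (fitted -0.41, standard error 0.112, adjusted p = 0.233, and 0.0472 with the replicate block). Replicate 2 was the one closest to 0 in both comparisons. Across the array 12.5% of genes had one sign on all 10 arrays, as had 5 of the 34 members: Hk2 and P4ha1 below 0, and Pfkm, Ldha and Bnip3l above it. The 10 arrays rest on shared siFoxE1 extracts and shared pools and are not 10 independent measurements. Hk1, the housekeeping hexokinase, had fitted ratios of 0.16 and 0.30.

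Pgam1, the enzyme with the smallest p against wt, owed its fitted value to the pooled arrays. This mutase, which moves the phosphate group between the carbons of phosphoglycerate, had ratios against wt of -0.05, 0.08, 0.12 and -0.01 for replicates 1 to 4, and 0.58 for the pool. The fitted value was 0.31 (standard error 0.0708, limma adjusted p = 0.233). Against siScramble the individual arrays gave -0.13, -0.07, 0.05 and -0.03 and the pool 0.42 (fitted 0.19, standard error 0.0675, adjusted p = 0.307). The 4 replicates therefore sat around 0 while the swapped pool was higher in both comparisons. Tpi1, triose phosphate isomerase, had 0.19, 0.04, 0.27 and 0.09 against wt with 0.40 for the pool (fitted 0.28, standard error 0.0747, adjusted p = 0.233). Against siScramble its arrays gave -0.06, -0.11, 0.19 and 0.07 with 0.31 for the pool (fitted 0.17, standard error 0.0784, adjusted p = 0.423). All of its arrays against wt lay above 0, and 2 of 5 against siScramble lay below. Its second probe gave 0.34 and 0.16 in the same comparisons.

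Aldoc, a brain-type aldolase, had the largest fitted ratio above 0 against wt, from a probe printed as a single spot. Its ratios against wt were 0.19, 0.36, 0.79 and 1.17 with 0.65 for the pool (fitted 0.64, standard error 0.177, limma adjusted p = 0.233). Against siScramble they were -0.31, -0.34, 0.19 and 0.40 with 0.21 for the pool (fitted 0.10, standard error 0.143, adjusted p = 0.837). The log2 intensity of one siFoxE1 extract at this spot differed by up to 2.35 between its arrays, 8.26 against 10.61 for replicate 1. The other Aldoc probe, in 2 spots and with a log2 intensity of 6.24 to 6.34 in wt cells, gave -0.11 against wt and 0.06 against siScramble. Eno2, a neuronal enolase, had ratios of -0.11, -0.11, -0.11 and 0.04 against siScramble and -0.24 for the pool (fitted -0.16, standard error 0.0675, adjusted p = 0.379). Against wt it had -0.03, 0.01, -0.16 and 0.03 with -0.12 for the pool (fitted -0.08, standard error 0.0716, adjusted p = 0.603). Its siFoxE1 level also differed between arrays of one extract, by up to 0.80.

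The remaining enzymes stayed within a fitted log2 ratio of 0.30 on either side of 0. Gapdh had 0.01 against siScramble and 0.11 against wt, and its 3 probes spanned 0.00 to 0.02 and 0.11 to 0.15. Pgk1 had -0.02 and -0.09, Eno1 0.03 and 0.19, Aldoa -0.10 and 0.02, and Gpi 0.08 and 0.29. The phosphofructokinases Pfkl, Pfkp and Pfkm had 0.12, 0.22 and 0.20 against siScramble and 0.15, 0.15 and 0.29 against wt. Pfkfb3 and Pfkfb4, which make the activator fructose 2,6-bisphosphate, had 0.12 and -0.02 against siScramble and -0.05 and -0.11 against wt, at log2 intensities in wt cells of 6.34 to 6.87, and were the 2 tested members not above background on every array. Several glycolytic genes have near-identical processed copies in rodent genomes, and what else these probes bind was not checked.

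At the lactate step, Ldha, the lactate dehydrogenase subunit that HIF induces, lay above 0 on all 10 arrays. Its ratios against wt were 0.16, 0.56, 1.03 and 0.47 with 0.47 for the pool (fitted 0.51, standard error 0.15, limma adjusted p = 0.235). Against siScramble they were 0.08, 0.40, 0.49 and 0.43 with 0.01 for the pool (fitted 0.18, standard error 0.0894, adjusted p = 0.438). Replicate 1 had the lowest of the individual ratios in both comparisons. Ldhb, the other subunit, had fitted ratios of 0.14 and 0.39. Slc16a3, the lactate exporter MCT4, had -0.27, 0.11, 0.36 and -0.02 against siScramble with 0.22 for the pool (fitted 0.13, standard error 0.111, adjusted p = 0.669). Against wt it had -0.27, 0.42, 0.35 and -0.02 with 0.25 for the pool (fitted 0.19, standard error 0.138, adjusted p = 0.505), so replicates 1 and 4 sat on the other side of 0 from replicates 2 and 3. Pdk1, which phosphorylates and shuts off pyruvate dehydrogenase, had fitted ratios of -0.22 and -0.20.

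Of the oxygen-sensing genes, Egln3 had ratios of 0.15, 0.00, 0.12 and 0.31 against siScramble with 0.45 for the pool (fitted 0.30, standard error 0.0762, limma adjusted p = 0.222). Against wt it had 0.35, 0.24, -0.01 and 0.07 with 0.50 for the pool (fitted 0.33, standard error 0.0883, adjusted p = 0.233). It was below 0 on 1 of the 10 arrays. Hif1a, the oxygen-regulated subunit of HIF-1, is controlled mainly through protein stability, which arrays do not measure. Its log2 intensity in wt cells was low, at 6.48 to 7.14. Its ratios against wt were -0.04, 0.11, -0.38 and 0.05, with 0.78 for the pool (fitted 0.36, standard error 0.104, adjusted p = 0.234). Against siScramble they were 0.13, 0.08, -0.12 and -0.32, with 0.27 for the pool (fitted 0.10, standard error 0.0945, adjusted p = 0.709). The 4 individual arrays alone gave -0.06 in each comparison, the opposite sign from the fitted value.

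The 11 other HIF targets had 4 fitted ratios above 0 and 7 below 0 in each comparison, with medians of -0.02 against siScramble and -0.07 against wt. Ankrd37, an ankyrin repeat protein induced by HIF-1, had the widest ratios of all members. Against siScramble they were -0.40, -0.08, -2.12 and -1.16 for replicates 1 to 4 and -0.72 for the pool. Against wt they were -0.31, 0.10, -2.62 and -1.34, and -1.02 for the pool. Replicates 3 and 4 were far below 0 in both comparisons and replicate 2 was near 0. The fitted ratios, -0.83 (1.78-fold lower, standard error 0.324, limma adjusted p = 0.333) and -1.03 (2.05-fold lower, standard error 0.46, adjusted p = 0.307), did not pass. The 3 siScramble arrays on slide 1, replicates 1, 2 and 4, gave -0.54, and with the slide as a term the fitted value turned to 0.16. Among the individual siScramble arrays only replicate 3 lay on slide 2, so slide and replicate 3 cannot be told apart there. Replicate 3 against wt, at -2.62, was read on slide 1.

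P4ha1, a collagen prolyl hydroxylase, lay below 0 on all 10 arrays. Against siScramble its ratios were -0.21, -0.23, -0.85 and -0.69 with -0.39 for the pool (fitted -0.44, standard error 0.129, limma adjusted p = 0.251). Against wt they were -0.38, -0.11, -1.50 and -0.63 with -0.38 for the pool (fitted -0.52, standard error 0.235, adjusted p = 0.311). Bnip3, a mitochondrial protein that promotes mitophagy, was on both sides of 0. Against siScramble it had 0.27, 0.30, -0.88 and -0.59 with -0.64 for the pool (fitted -0.43, standard error 0.218, adjusted p = 0.45). Against wt it had 0.40, 0.26, -1.34 and -0.45 with -0.85 for the pool (fitted -0.57, standard error 0.306, adjusted p = 0.371). Replicates 1 and 2 were above 0 and replicates 3 and 4 below it in both comparisons, and replicates 1, 2 and 4 on slide 1 gave -0.0048 against siScramble. Leaving out slide 2 also leaves out replicate 3, which against wt was at -1.34 on slide 1. P4ha2, a relative of P4ha1, had fitted ratios of -0.15 in both.

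Other HIF targets stood near 0 or went the other way. Bnip3l, a relative of Bnip3, lay above 0 on all 10 arrays, with fitted ratios of 0.19 and 0.28. Ndrg1 had 0.15 and 0.33, Adm, the vasodilator adrenomedullin, 0.01 and 0.22, and the histone demethylase Kdm3a 0.02 and -0.02. Ca9, carbonic anhydrase IX, which is listed under the newer symbol Car9, had -0.04 and 0.06. Mxi1, a MYC antagonist, had -0.01 and -0.07 at the probe brightest over both comparisons, and -0.06 and -0.07 at the probe brightest against siScramble alone. Vegfa had -0.02 and -0.26 at its brightest probe and -0.16 to -0.11 and -0.17 to -0.06 at the others. The classical hypoxia targets therefore had no common direction.

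**Figure D3:**
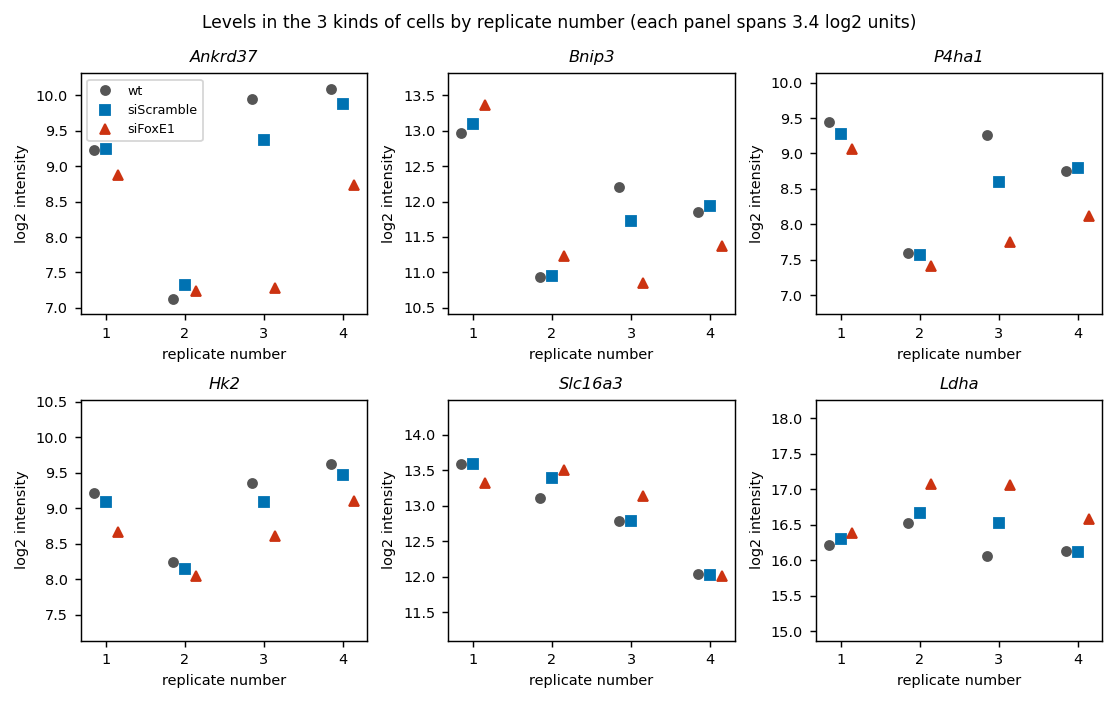
Normalized log2 intensity of 6 genes in wt (circles), siScramble (squares) and siFoxE1 (triangles, mean of both arrays of an extract) by replicate number, each panel spanning 3.4 log2 units. Ankrd37, Bnip3 and P4ha1 were lowest in replicate 2 of wt and siScramble cells, and Ankrd37 in siFoxE1 replicate 3 (7.28) was near its level in replicate 2 of all 3 kinds of cells.

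Levels differed between replicate numbers in cells that never received the FoxE1 siRNA. For each probe, wt and siScramble levels of replicates 1 to 4, all read in Cy3 on separate arrays, were fitted with treatment and replicate number. The limma test asked whether the numbers differed. Deviations of wt and siScramble levels correlated at 0.112 in replicate 3, where other numbers reached 0.411, so the pairing of that replicate is unsure. Of 34 members 17 passed at an adjusted p under 0.05, which is 50% of them, where 43.3% of all 9575 genes tested passed. Of the other HIF targets 8 of 11 passed, of the glycolytic enzymes 5 of 16, of the pyruvate and lactate genes 3 of 4, with Slc2a1, and neither oxygen-sensing gene did. The distance from the lowest to the highest number had a median of 0.62 on the log2 scale over the members and 0.37 over all genes. The median difference between arrays of one siFoxE1 extract, read in Cy5, was 0.05 for the members and 0.06 for all genes. It is a gap between paired readings and not a range over 4 numbers, so the sizes are not directly comparable. The distance between numbers exceeded the size of the fitted silencing ratio for 33 of 34 members against siScramble and 31 of 34 against wt. It did so for 95.7 and 91.3% of all genes too.

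The count depended on replicate 2. Without it, and with fewer arrays in the fit, 5 members passed (Bnip3, Bnip3l, Pdk1, Slc16a3 and Tpi1), beside 4.06% of all genes, and without replicate 1 it was 10, beside 25.8%. Ankrd37 had log2 intensities in wt cells of 9.22, 7.13, 9.95 and 10.09 for replicates 1 to 4 and in siScramble cells of 9.25, 7.32, 9.36 and 9.88. The span was 2.76, or 6.77-fold (limma adjusted p = 0.00235 for the replicate number). Its siFoxE1 levels were 8.88, 7.24, 7.28 and 8.74. Replicate 2 thus had the same low level with or without any siRNA, and siFoxE1 replicate 3 was at a level found otherwise only in replicate 2.

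Bnip3 had wt levels of 12.97, 10.94, 12.20 and 11.85 and siScramble levels of 13.09, 10.96, 11.72 and 11.93, a span of 2.08 (adjusted p = 0.00295 from limma). P4ha1 had 9.45, 7.59, 9.26 and 8.75 in wt and 9.28, 7.57, 8.59 and 8.79 in siScramble cells, a span of 1.78 (adjusted p = 0.00378). Both were lowest in replicate 2, and both were highest in replicate 1. Hk2 had 9.21, 8.23, 9.36 and 9.62 in wt and 9.09, 8.14, 9.08 and 9.47 in siScramble cells, a span of 1.36 (adjusted p = 0.00258), and in siFoxE1 cells 8.67, 8.04, 8.61 and 9.10. For Hk2 the order of the numbers was alike in the 3 kinds of cells at the ends, with replicate 2 lowest and replicate 4 highest.

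Some other members had other orders. Slc16a3 had 13.59, 13.10, 12.79 and 12.04 in wt and 13.59, 13.39, 12.78 and 12.02 in siScramble cells, a span of 1.56 with replicate 4 lowest (limma adjusted p = 0.00272). Bnip3l had a span of 1.05 and was also lowest in replicate 4, and Pfkm and Ldhb, with spans of 0.70 each, were highest in replicate 2. Adm and Pdk1, with spans of 1.399 and 1.396, were like Bnip3 and P4ha1 lowest in replicate 2 and highest in replicate 1 of both controls. Eno2 had a wt range of 1.75 but did not pass (adjusted p = 0.0798), nor did Aldoc (adjusted p = 0.474) with its single spot. Vegfa did not pass at its brightest probe (span 0.28), while its 3 other probes did, with spans of 0.66, 0.68 and 0.69 and replicate 2 lowest. In 24 of 34 members the same number was lowest in wt and siScramble cells (70.6%), beside 61.4% of all genes, and in 14 of them that number was 2 (41.2%, beside 26.5% of all genes).

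**Figure D4:**
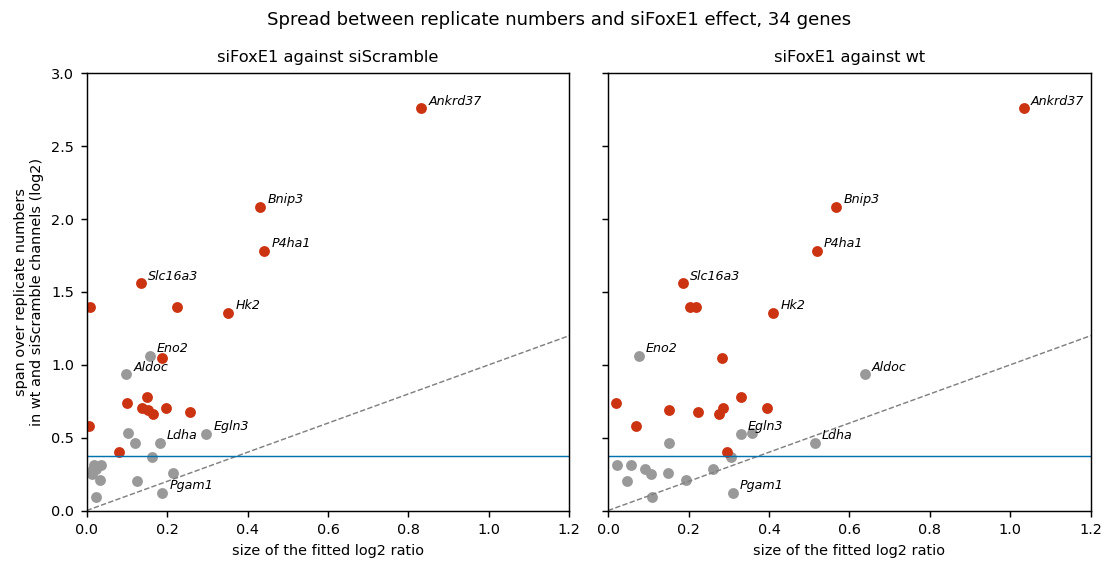
Distance between the lowest and the highest replicate number in wt and siScramble channels (y axis, log2) against the size of the fitted silencing ratio (x axis, log2) for the 34 genes, red where the replicate number passed the test and grey where it did not. The dashed line marks equal values and the blue line the median distance of all genes, 0.37; Pgam1 lies below the dashed line in both comparisons, and Ldha and Pfkfb4 against wt.

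Whether the ratios of these genes follow the state of the cultures can be described only over 4 replicate numbers, too few for a correlation. For Ankrd37, Bnip3 and P4ha1 the ratio was lowest in replicate 3 in both comparisons. The pairing of wt and siScramble cells is unsure for that replicate. In 12 of 34 members the number with the highest wt level had the lowest ratio against siScramble, which was read on other arrays and with other control RNA (35.3%, beside 29.4% of all genes). In 8 the number with the lowest wt level had the highest ratio (23.5%, beside 28.7%). By group, the first share was 43.8% for the glycolytic enzymes (7 of 16) and 18.2% for the other HIF targets (2 of 11). No test of these shares was made. The signs of the 4 individual ratios were mixed in 23 members against siScramble (67.6%, beside 65.2% of all genes) and in 25 against wt (73.5%, beside 60.9%).

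Other groups of genes also differed between the numbers. The 9 measured ER chaperones, which fold secreted proteins, were all lowest in replicate 2 in wt and in siScramble cells, with a median deviation from the mean of the 4 of -2.20 and -1.95. Their median ratio against siScramble was -0.10, -0.07, -1.99 and -1.36 for replicates 1 to 4 and against wt -0.36, -0.04, -2.89 and -1.64, where Ankrd37 had -0.40, -0.08, -2.12 and -1.16 and -0.31, 0.10, -2.62 and -1.34. The 9 measured cell cycle genes were all highest in replicate 2 of both controls, and their median ratio was -0.39, 0.04, 0.23 and -0.10 against siScramble and -0.27, 0.10, 0.86 and -0.07 against wt. Of 10 integrated stress response genes, 7 were lowest in replicate 2 and 7 highest in replicate 4 in both controls. Their median ratio was -0.13, -0.36, -0.58 and -0.11 against siScramble and -0.27, -0.82, -1.01 and -0.26 against wt, so replicate 3 was lowest as for Ankrd37, but replicate 4 was not low. The median ratio of the 34 members stayed between -0.02 and 0.07 in all 4 numbers and both comparisons. The part of these groups in the ratios of Ankrd37, Bnip3, P4ha1 and Hk2 was not tested.

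**Figure D5:**
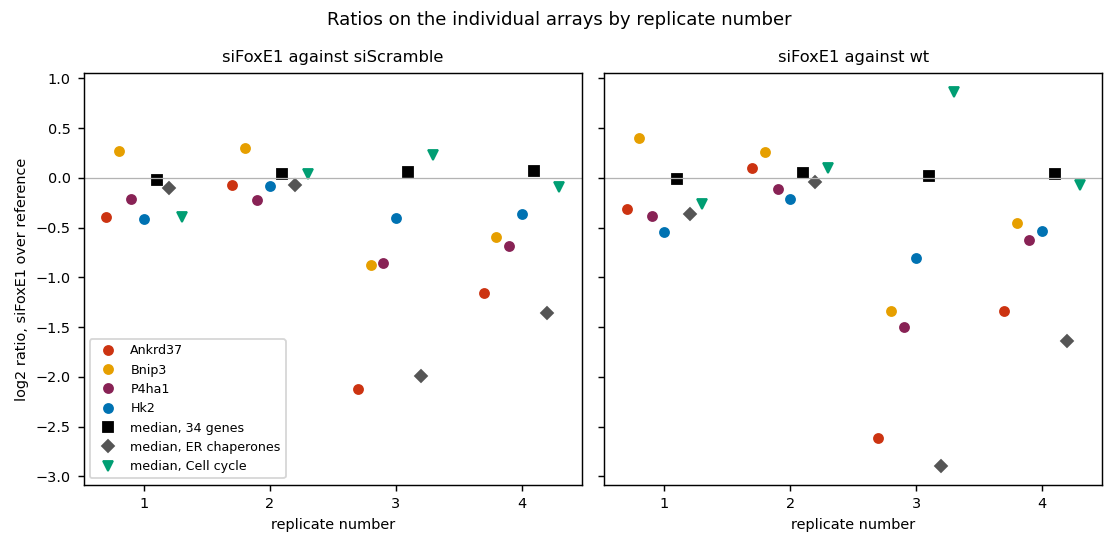
Log2 ratios of Ankrd37, Bnip3, P4ha1 and Hk2 (circles) on the individual arrays by replicate number, beside the median of the 34 genes (squares), of 9 ER chaperones (diamonds) and of 9 cell cycle genes (triangles). Ankrd37 and the ER chaperones lie far below 0 in replicates 3 and 4, while the median of the 34 genes stays near 0.

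siScramble and wt cells, set against each other through their siFoxE1 arrays, differed in none of the 34 members at a limma adjusted p under 0.05, and in none of 9571 genes (0%). At an unadjusted p under 0.05 it was 0 members and 110 genes (1.15%). This fit did not use the pairing by replicate number, and 1.15% is below the share that chance alone would give at this threshold. The test was therefore strict, and it does not show that siScramble and wt cells were alike. With the replicate numbers as a block, all 10 arrays in one limma fit gave 0 members against siScramble (0.272% of all genes) and 3 against wt (4.52% of all genes). These were Hk2 at -0.41 (adjusted p = 0.0472), Aldoc at 0.64 (adjusted p = 0.0472) and Pgam1 at 0.31 (adjusted p = 0.0399), the last 2 with the limits given above for the single spot and the pooled array. The same fit without the block gave 0 of 34 against wt (0.972% of all genes). With no dye term in the separate fits, Hk2, P4ha1 and Pfkp passed against siScramble (3 of 34, beside 5.35% of all genes) and Hk2, Aldoc and Ldha against wt (3 of 34, beside 6.03%).

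Of a wider list of 61 genes of the same pathways, 45 were tested and 0 passed in either comparison by limma, with medians of 0.01 and -0.02. At an unadjusted p under 0.05, 3 lay above 0 and 5 below 0 with siScramble as the reference, where 8.65 and 7.47% of all genes did, and 6 and 2 with wt, where 10.6 and 10.2% did. The lowest by the mean of both comparisons were Slc16a1, the lactate and pyruvate carrier MCT1 (-0.38 and -0.57), Tigar, which lowers fructose 2,6-bisphosphate (-0.36 and -0.59), and Wsb1, a HIF-induced ubiquitin ligase adaptor (-0.40 and -0.40). The highest were Pdk2, another kinase of pyruvate dehydrogenase (0.36 and 0.53), Hk3, a further hexokinase (0.45 and 0.43), and Mif (0.17 and 0.51). Hk3 lay above 0 on all of its arrays, from 0.25 to 0.67, but at log2 intensities in wt cells of only 6.23 to 6.47. The individual ratios of Slc16a1, Tigar and Wsb1 were lowest in replicate 3. By replicate number in the control channels, 23 of the 45 passed, beside 43.3% of all genes, among them the hypoxia and stress gene Ddit4 with a span of 1.28 (limma adjusted p = 0.00272) and the ER oxidase Ero1a with 1.26 (adjusted p = 0.004).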

How the data were processed

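RNA of PCCl3 cells was hybridised to 10 Agilent rat 60K 2-colour arrays. The deposited files hold scanner intensity values per spot from Feature Extraction 10.7.3.1, with a log10 ratio per spot made by that software, used as an alternative. The submitters' processing notes name limma 3.2.3, and the authors deposited a table of normalized log2 ratios of all arrays, also used as an alternative. Median spot intensities were corrected with normexp (offset 50), normalized by loess within and quantile between arrays and averaged over spots of a probe in limma 3.58.1 (R 4.3.3). A probe entered the test if one channel was well above background on 3 or more of a comparison's 5 arrays, with a dye term and Benjamini-Hochberg adjustment over all probes (18117 and 18517). The brightest tested probe stood for its gene. Of 30367 probes, 17998 were named through RefSeq accessions. Genes given array by array were Ankrd37 and Hk2, the 8 further members with the smallest unadjusted p in either comparison and the 3 further members with the widest range over the wt channels. Of the wider list, the 3 lowest and 3 highest by mean ratio were named, and Ddit4 and Ero1a after their values were seen. Members and lists were chosen with earlier results of these data known. Scripts were tested on simulated data. Replicates are 4 cultures, so their number limits the precision. Replicate numbers were taken to pair the samples because deviations of wt and siScramble levels, read on separate arrays, correlated within a number at 0.742, 0.789, 0.112 and 0.682 for replicates 1 to 4. Between numbers they correlated at -0.584 to 0.411, so replicate 3 did not stand out. Direction follows the dyes of the labels, under which Foxe1 was lower. The study's design scheme colours the dyes the other way round.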

Additional observations from a re-analysis of the deposited data

Results flagged for a closer look

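Of 68 sets of 4 individual ratios, 34 genes in each comparison, 4 had a replicate that stood apart from the other 3 (5.88%), where chance gives about 1 in 20. Hk2 against siScramble had -0.079 in replicate 2, with the others between -0.416 and -0.361. Eno2 against siScramble had 0.0414 in replicate 4, with the others between -0.111 and -0.105. Eno1 against wt had -0.0357 in replicate 1, with the others between 0.0414 and 0.0498. Vegfa against wt had -0.292 in replicate 3, with the others between -0.013 and 0.0296.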

How the results depend on the processing

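The count of members that passed and their median ratio were recomputed under other background corrections, normalizations, filters, probes, fits and with replicates left out. Without the dye term 3 members passed against siScramble (Hk2, P4ha1 and Pfkp, beside 5.35% of all genes) and 3 against wt (Aldoc, Hk2 and Ldha, beside 6.03%), with a median against wt of 0.0567. The individual arrays alone gave a median of 0.0113 against wt. All arrays in one fit with the replicate block gave 3 members against wt, beside 4.52% of all genes. One shared dye term, chosen after seeing the data, gave 7 members against wt, beside 12% of all genes, and 6 with the replicate block, beside 1025 of 9571 genes, both with a median of 0.11. Within slide 1, also chosen after seeing the data, the median against siScramble was 0.00992. Leaving out each replicate in turn gave medians of 0.03 to 0.06 against siScramble and 0.13 to 0.17 against wt, with 0 members passing, and 5 to 21 members passing for the replicate number, 10 without replicate 1 and 5 without replicate 2. Signs against siScramble turned on the individual arrays alone for Pgam1 (-0.045), Aldoc (-0.0154) and Hif1a (-0.0595), and for Hif1a against wt (-0.0636). With slide as a term they turned for Ankrd37 (0.16), Aldoc (-0.0687), Bnip3 (0.11) and Slc16a3 (-0.13). Within slide 1 they turned for Pgam1 (-0.0763), Tpi1 (-0.036), Aldoc (-0.0824), Hif1a (-0.0386) and Slc16a3 (-0.0599). Slide and replicate 3 cannot be told apart among the individual siScramble arrays, and the cause was not tested. Of 559 recomputed values of single genes, 526 kept their direction and side of the threshold and 20 passed where the reported value did not. The alternative on mean spot signals was not run. Genes near background, such as Pfkfb3, Pfkfb4, Slc2a3 and Hk3, are limited by their signal.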
